A study of Mus musculus with 9 samples.

Results

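Smarca5 and Smarca1 encode the ATPases of the mouse ISWI chromatin remodelling complexes, and their RNA was described here transcript by transcript. All transcripts that GENCODE M21 annotates for these genes were taken, whatever their level: 6 of Smarca5 and 7 of Smarca1, together 13 of the 116546 transcripts in each table and 2 of 35498 genes. All 13 were listed in the tables, and 8 of them passed the filter on low counts and were tested (3 of Smarca5 and 5 of Smarca1). The other 5 are given by their reads.

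The study sequenced mRNA from the whole cortical tissue of C57Bl/6 mouse embryos at E13.5, the stage at which dividing progenitors line the ventricle and the early cortical neurons settle. There were 3 libraries in each of 3 genotypes. The libraries labelled DKO carried Smarca1 -/- and Cre +/-, and the series text calls them double knockouts of Smarca5 and Smarca1. Those labelled Smarca1 KO carried Smarca1 -/- and Cre -/-, so both of these groups shared the Smarca1 mutation. Those labelled WT carried Smarca1 +/+ and Cre -/-. Not given in the labels are the promoter that drives the Cre, the exons removed at either gene, and the Smarca5 genotype of the libraries without Cre. Nothing in the labels ties the replicates of a genotype to different embryos, and the p-values therefore rest on a spread between libraries that may be technical.

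ISWI ATPases use ATP to slide nucleosomes along DNA and to space them evenly. Smarca5 (also called SNF2H) and Smarca1 (SNF2L) are the vertebrate copies of a single ancestral gene, and each is joined by partner subunits that decide where the complex acts: Baz1a in ACF, Baz1b in WICH, Baz2a in NoRC, Rsf1 in RSF, Bptf in NURF and Cecr2 in CERF. In the developing mouse brain Smarca5 is known from dividing progenitors and Smarca1 more from differentiating neurons.

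A library held 27466225 to 46007718 counts, summed over genes. All markers checked for cortical progenitors and for cortical neurons were detected in every group. Summed over Emx1, Emx2, Pax6, Sox2 and Hes5, progenitor markers stood at 542 to 593 TPM (a level per transcript length, scaled to the same total in each library) in DKO, at 528 to 650 in Smarca1 KO and at 713 to 730 in WT. The 6 microglial markers summed to 44.4 to 55.6 TPM in DKO, to 31.1 to 41.0 in Smarca1 KO and to 31.1 to 32.8 in WT. Ventral forebrain and interneuron markers, 7 genes, summed to 632 to 781 TPM in DKO, to 580 to 645 in Smarca1 KO and to 534 to 636 in WT, and the 7 blood markers to 3452 to 5824 TPM in DKO, to 4430 to 6426 in Smarca1 KO and to 5534 to 7269 in WT. No gene of these lists was at 0. The part of these differences in the results below was not tested. The tissue was bulk, so fewer cells of a type and less RNA per cell cannot be told apart.

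Smarca5 (ENSMUSG00000031715.14) lies on the minus strand of GRCm38 chromosome 8, from 80698507 to 80739497. Smarca1 (ENSMUSG00000031099.16) lies on the minus strand of chromosome X, from 47809368 to 47892974. The coding transcript Smarca5-201 has 24 exons and 3153 coding bases for 1051 residues, and Smarca1-202 has 23 exons and 3138 coding bases for 1046 residues. Exons 3 to 22 have the same length in both, which makes 20 exons and 2733 bases that can be set side by side without a gap, and 75.0% of those bases are identical. Exon 19 is the least alike at 62.6% and exon 18 the most alike at 82.5%. The longest identical run is 21 bases, in exon 7. That exon is printed for both genes, since it shows how close the paralogs come and why their reads can still be told apart; capitals mark the 29 of 156 bases that differ.
Smarca5 exon 7 (GRCm38 chr8:80726211-80726366, minus strand): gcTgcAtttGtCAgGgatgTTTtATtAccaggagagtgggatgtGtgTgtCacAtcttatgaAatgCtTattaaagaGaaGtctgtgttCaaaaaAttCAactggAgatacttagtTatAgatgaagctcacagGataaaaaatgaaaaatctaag
Smarca1 exon 7 (GRCm38 chrX:47876385-47876540, minus strand): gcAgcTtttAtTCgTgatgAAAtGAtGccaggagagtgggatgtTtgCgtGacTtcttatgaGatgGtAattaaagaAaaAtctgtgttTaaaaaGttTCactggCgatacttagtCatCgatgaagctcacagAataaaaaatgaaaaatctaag
No stretch of 31 bases of Smarca1 occurred in any other gene, Smarca5 included.

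**Figure D1:**
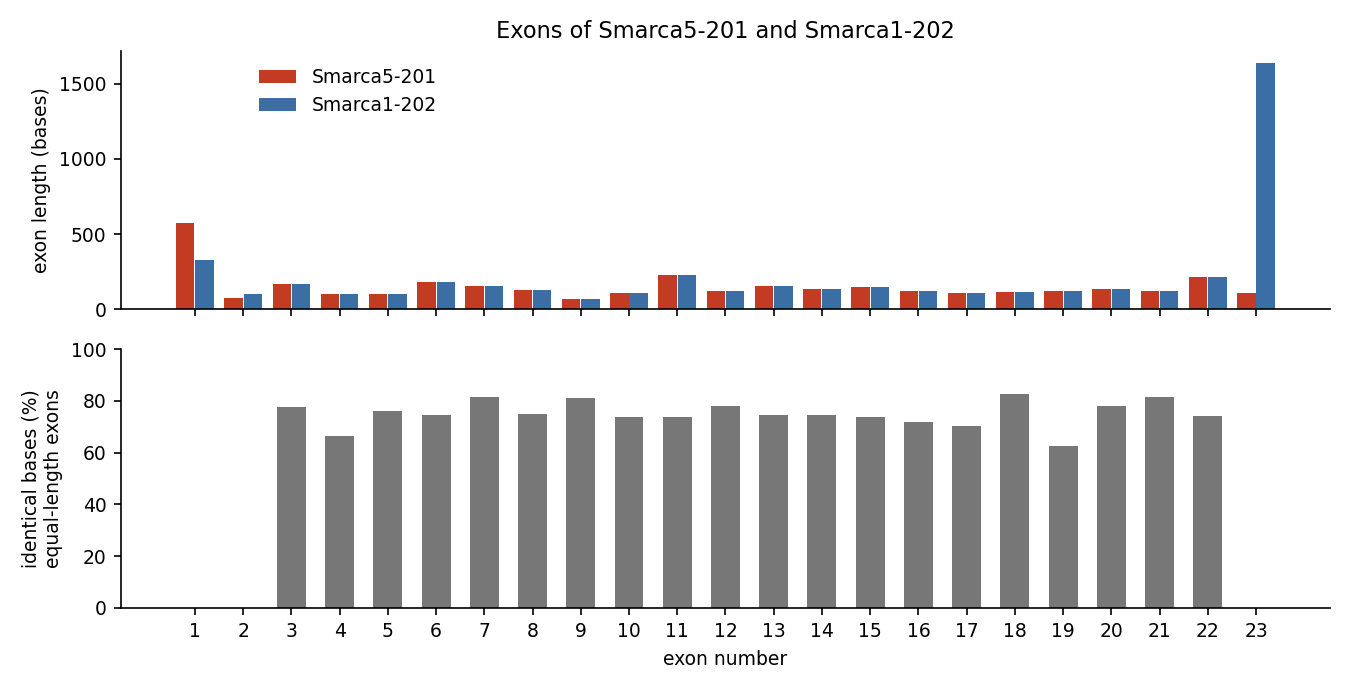
Exon lengths in bases of Smarca5-201 and Smarca1-202 (upper panel) and the percent of identical bases in the exons of equal length (lower panel), by exon number. Exons 3 to 22 have equal lengths and between 62.6% and 82.5% identical bases. Exon 24 of Smarca5-201 has no counterpart in Smarca1-202 and is not drawn.

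The transcripts of a gene overlap in sequence, and they are told apart by the bases that differ. Of the 6 Smarca5 transcripts 5 are annotated as retained-intron transcripts with no reading frame. Smarca5-202 is the longest of these. It follows exons 1 to 20, ends inside exon 20, and holds 351 bases upstream of exon 7 (GRCm38 chr8:80726367-80726717) that Smarca5-201 splices out. These 351 bases have 30.5% G and C, join directly to exon 6 at their start, and end in the ag that precedes exon 7. Read on in the frame of Smarca5-201, they reach a stop codon within 93 bases. They are what identifies the transcript: 355 of its 3262 stretches of 31 bases, 10.9%, occur in no other transcript. The start and the end of the 351 bases are shown with the adjoining exon bases in lower case and the added bases in capitals.
Smarca5-202, exon 6 into the added bases (minus strand, ends at chr8:80727639 and 80726622): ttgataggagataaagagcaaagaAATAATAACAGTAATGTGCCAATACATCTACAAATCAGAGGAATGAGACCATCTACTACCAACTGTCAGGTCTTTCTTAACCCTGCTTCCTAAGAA
Smarca5-202, added bases into exon 7 (chr8:80726343-80726462, minus strand): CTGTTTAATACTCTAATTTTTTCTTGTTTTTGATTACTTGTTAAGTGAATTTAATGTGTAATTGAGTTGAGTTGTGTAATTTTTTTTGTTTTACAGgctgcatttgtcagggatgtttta

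Smarca5-204 is a fragment of 503 bases that runs from exon 15 through exon 17 into 230 bases of intron 17 (chr8:80709426-80709655). Of its 31-base stretches 33.2% occur in no other transcript. Its passage from exon 17 into the intron, with the gt of the splice donor kept and a stop codon in frame within 27 bases, is shown with intron bases in capitals.
Smarca5-204, exon 17 into intron 17 (chr8:80709560-80709679, minus strand): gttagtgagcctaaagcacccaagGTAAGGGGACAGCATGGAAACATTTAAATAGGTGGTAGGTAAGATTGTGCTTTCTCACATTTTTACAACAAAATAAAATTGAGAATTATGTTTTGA
Smarca5-205 covers exons 7 and 8 with 408 bases of intron 8, Smarca5-203 overlaps exons 12 and 13 and has 490 bases outside the exons of Smarca5-201, and Smarca5-206 overlaps exons 16 and 17 with 185 bases outside them.

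The Smarca1 transcripts differ mainly at the end of the reading frame and by a small exon. Smarca1-201 and Smarca1-202 encode the same 1046 residues. Smarca1-203 leaves exon 23 earlier and splices to a further exon, which replaces the last 7 codons by 23 others and gives 1062 residues. Both ends are printed from the last 24 shared bases onward, with capitals for the bases that differ, stop codon included.
Smarca1-202, end of the reading frame (chrX:47811134-47811181, minus strand): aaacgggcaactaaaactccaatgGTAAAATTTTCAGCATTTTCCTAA
Smarca1-203, end of the reading frame (minus strand, ends at chrX:47811181 and 47810049): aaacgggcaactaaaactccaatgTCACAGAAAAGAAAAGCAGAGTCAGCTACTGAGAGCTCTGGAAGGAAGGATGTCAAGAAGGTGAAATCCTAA
Smarca1-206 has an added exon of 36 bases (chrX:47855578-47855613) between exons 12 and 13, which adds 12 codons in frame with no stop codon. In human SNF2L, a splice form with an added exon in the catalytic region is known to lack remodelling activity; whether the mouse exon corresponds to it was not tested. The exon is shown in capitals between its neighbours.
Smarca1-206, exon 12, added exon and exon 13 (minus strand, ends at chrX:47858279 and 47854695): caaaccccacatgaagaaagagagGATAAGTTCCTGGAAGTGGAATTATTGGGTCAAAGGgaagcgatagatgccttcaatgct
Smarca1-201 and Smarca1-203 had only 26 and 29 stretches of 31 bases found in no other transcript, against 1063 in Smarca1-202 and 63 in Smarca1-206. Their split of the reads is therefore an estimate that rests on few bases.

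Smarca5, which the series text names as the gene knocked out in addition in DKO, was lower there. Its RNA summed over its transcripts stood at 36.9, 31.7 and 29.8 TPM in DKO, against 92.0, 87.1 and 85.7 TPM in Smarca1 KO and 111, 110 and 104 TPM in WT. The DKO libraries lay below all others, and the Smarca1 KO libraries lay below the WT libraries. In counts the level in DKO was 34.3% of that in Smarca1 KO (95% interval 31.2% to 37.7%) and 30.1% of that in WT (27.4% to 33.1%). The log2 fold changes were -1.54 (SE 0.061, adjusted p = 3.0e-06) and -1.73 (SE 0.061, adjusted p = 2.1e-06) in edgeR's quasi-likelihood test over 15773 genes, of which 4.39% and 12.0% were called at an adjusted p under 0.05.

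Between the libraries labelled Smarca1 KO and WT, Smarca5 did not pass the test. Its log2 fold change was -0.19 (95% interval -0.32 to -0.06, adjusted p = 0.16), although the 212 to 246 CPM (counts scaled by library size) in Smarca1 KO did not overlap the 262 to 271 CPM in WT. Of all genes 0.336% were called in that comparison. The level was 87.7% of WT in counts (80.0% to 96.1%) and 81.6% of WT in summed TPM, and for the coding transcript alone 90.1% of WT in TPM.

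No fall of Smarca1 RNA was detected in the libraries labelled as mutant for it. It stood at 18.2, 18.9 and 18.2 TPM in DKO, at 19.9, 16.2 and 21.2 TPM in Smarca1 KO and at 17.9, 17.8 and 17.9 TPM in WT. The WT libraries lay within the range of the Smarca1 KO libraries. The log2 fold changes were -0.08 for DKO against Smarca1 KO (95% interval -0.24 to 0.09, adjusted p = 0.64), 0.05 for DKO against WT (-0.12 to 0.21, adjusted p = 0.71) and 0.12 for Smarca1 KO against WT (-0.04 to 0.29, adjusted p = 0.38); the sign for DKO against WT turned to -0.05 with a covariate for Y-linked reads. Smarca1 KO replicate 2 or 3 moved these values most: without replicate 2 the log2 fold change was -0.16 for DKO against Smarca1 KO and 0.21 for Smarca1 KO against WT (adjusted p = 0.13 and 0.083), and without replicate 3 it was -0.02 and 0.06 (adjusted p = 0.89 and 0.75). For Smarca1 KO the level was 109% of WT in counts, with a 95% interval of 97.2% to 122%. Since the exons removed are not given, a total over the gene does not check the genotype label, and the groups are called by their labels throughout.

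**Figure D2:**
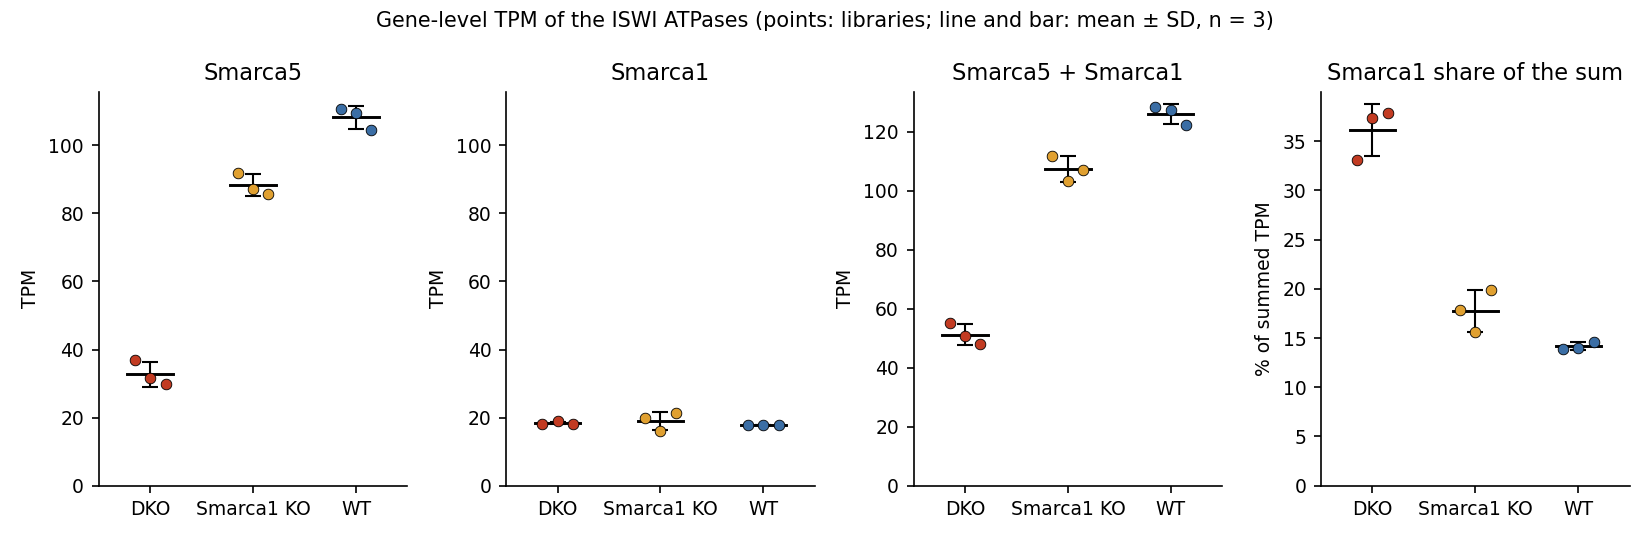
TPM of Smarca5, of Smarca1 and of their sum, and the percent of the sum held by Smarca1, in DKO, Smarca1 KO and WT; points are libraries, lines and bars are mean ± SD (n = 3). Smarca5 sits at 29.8 to 36.9 TPM in DKO, below all other libraries, while Smarca1 lies between 16.2 and 21.2 TPM in all 9.

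By these levels Smarca5 was the main ISWI ATPase RNA in every library. It exceeded Smarca1 2.03, 1.68 and 1.64 times in DKO, 4.62, 5.40 and 4.04 times in Smarca1 KO and 6.19, 6.17 and 5.84 times in WT. The 2 genes together reached 51.2 ± 3.6 TPM in DKO, 107 ± 4.3 TPM in Smarca1 KO and 126 ± 3.3 TPM in WT (SD, n = 3 each). Smarca1 made up 33.1%, 37.3% and 37.9% of that sum in DKO, 17.8%, 15.6% and 19.9% in Smarca1 KO and 13.91%, 13.96% and 14.62% in WT. The 3 groups did not overlap in this share. The difference was 18.3 percentage points between DKO and Smarca1 KO, 21.9 between DKO and WT and 3.61 between Smarca1 KO and WT. A two-sided exact permutation test gave p = 0.1 each time, the smallest p that 3 against 3 libraries allow. With coding transcripts alone, the difference between Smarca1 KO and WT was 2.81 points (exact permutation p = 0.3). The levels and ratios above also count transcripts without a reading frame. Coding transcripts averaged 25.7 TPM for Smarca5 and 18.4 for Smarca1 in DKO, 70.0 and 19.1 in Smarca1 KO, and 77.7 and 17.8 in WT.

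Set among 31 ATPases of the SNF2 family, which shares the helicase-like motor with ISWI, Smarca5 ranked 15 by mean TPM in DKO and 8 in both Smarca1 KO and WT. In DKO it stood between Hells at 42.3 ± 5.3 TPM and Smarcal1 at 31.3 ± 3.0 TPM. Smarca5 itself averaged 32.8 ± 3.7 TPM, so it and Smarcal1 did not differ beyond their spread, while Hells lay farther away than either SD. In WT it stood between Chd8 at 116 ± 3.8 TPM and Smarcad1 at 88.0 ± 3.7 TPM. Smarca1 ranked 25, 25 and 26 in DKO, Smarca1 KO and WT. Its WT neighbours were Chd5 at 18.9 ± 0.91 TPM and Zranb3 at 14.8 ± 0.60 TPM. Among all genes above 0 TPM, which numbered 18724 to 19521 per library, Smarca5 had rank 5247 to 6148 in DKO, 2090 to 2337 in Smarca1 KO and 1696 to 1813 in WT.

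The coding transcript Smarca5-201 fell in DKO. It had 27.2, 25.7 and 24.3 TPM in DKO, against 74.5, 71.9 and 63.7 TPM in Smarca1 KO and 79.9, 77.3 and 76.0 TPM in WT. The DKO libraries stood apart from all others, while Smarca1 KO and WT lay close to each other without overlap. Its log2 fold change was -1.47 for DKO against Smarca1 KO (SE 0.076, adjusted p = 0.00075) and -1.58 for DKO against WT (SE 0.076, adjusted p = 0.00044) among 50753 transcripts, of which 0.132% and 0.327% were called. For Smarca1 KO against WT it was -0.11 (95% interval -0.28 to 0.06, adjusted p = 0.71), with 0.0296% of transcripts called. In DKO the coding transcript thus stood at 36.1% of Smarca1 KO (32.0% to 40.8%) and at 33.4% of WT (29.6% to 37.7%). Its reads were assigned to the whole annotated transcript, and reads over single exons were not counted. Since the exons removed are not given, these levels do not tell intact RNA from RNA that lacks exons.

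Smarca5-202, the transcript with the 351 added bases printed above, had few or no reads in DKO. It was assigned 0, 0 and 97.0 reads in DKO, against 504, 356 and 505 reads in Smarca1 KO and 903, 960 and 830 reads in WT. In TPM these were 0, 0 and 1.32 in DKO, 8.07, 7.27 and 11.6 in Smarca1 KO and 14.5, 20.8 and 16.8 in WT. The 3 groups did not overlap, and DKO replicate 3 was the only DKO library with any read of it.

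The share of Smarca5 reads given to this transcript was 0%, 0% and 2.74% in DKO, 5.33%, 4.99% and 8.66% in Smarca1 KO and 8.64%, 12.3% and 10.4% in WT. DKO lay below the other groups, and the highest Smarca1 KO library overlapped the lowest WT library. As a level the transcript did not pass the test in any comparison. The log2 fold change was -4.26 for DKO against Smarca1 KO (SE 1.15, adjusted p = 0.31), -5.19 for DKO against WT (SE 1.19, adjusted p = 0.14) and -0.93 for Smarca1 KO against WT (SE 0.97, adjusted p = 0.85). These estimates depend on how libraries at 0 are handled, and they are no bound. Without DKO replicate 3, which leaves only DKO libraries at 0, the transcript was called against both Smarca1 KO (adjusted p = 0.0055) and WT (adjusted p = 0.0042); over the other alternatives the adjusted p ran up to 0.62 and 0.35.

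Usage tests asked whether a transcript changed relative to the rest of its gene. Of the 8 transcripts tested, Smarca5-202 alone was called, in DKO against WT alone, where its log2 usage change was -3.47 (adjusted p = 0.036 over 45704 transcripts, 0.407% called). In DKO against Smarca1 KO the change was -2.72 (adjusted p = 0.19, 0.339% called), and in Smarca1 KO against WT it was -0.75 (adjusted p = 1, 0.457% called). The call in DKO against WT did not hold under most other settings. Adjusted p was 0.22 with limma, 0.27 with only these groups fitted and 0.37 with a stricter filter. It was between 0.071 and 0.17 when any library other than DKO replicate 3 was left out. Without DKO replicate 3, which leaves only DKO libraries at 0, edgeR called the usage change against WT (adjusted p = 1.6e-09) and Smarca1 KO (adjusted p = 6.0e-09).

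Smarca5-204, the fragment that reads into intron 17, did not pass the test. It had 48.6, 26.3 and 27.1 reads in DKO, 51.7, 34.1 and 34.5 in Smarca1 KO and 70.6, 42.0 and 45.0 in WT. The groups overlapped in reads, which are not scaled by depth. In TPM it stood at 3.82 to 8.71 in DKO, 7.20 to 8.77 in Smarca1 KO and 9.51 to 11.9 in WT. On that scale the WT libraries lay above all others. Its log2 fold change was -0.43 for DKO against Smarca1 KO (95% interval -1.16 to 0.30, adjusted p = 0.83), -0.76 for DKO against WT (-1.49 to -0.04, adjusted p = 0.38) and -0.33 for Smarca1 KO against WT (-1.05 to 0.39, adjusted p = 0.83). Because it is short, few reads weigh much on the per-length scale. It held 0.765% to 1.59% of Smarca5 reads in DKO but 12.9% to 23.6% of Smarca5 TPM, against 8.27% to 9.74% of TPM in Smarca1 KO and 8.68% to 10.8% in WT. Its change in usage was not called (adjusted p = 1 in all 3 comparisons).

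The remaining 3 Smarca5 transcripts fell under the filter. Smarca5-205, which shares exons 7 and 8 with the coding transcript, had 2.40, 0 and 0 reads in DKO, 2.42, 1.14 and 0 in Smarca1 KO and 6.25, 9.15 and 4.99 in WT. The WT libraries lay above all others, at counts under the filter. Smarca5-203 had at most 3.43 reads and Smarca5-206 at most 11.3 reads in any library.

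**Figure D3:**
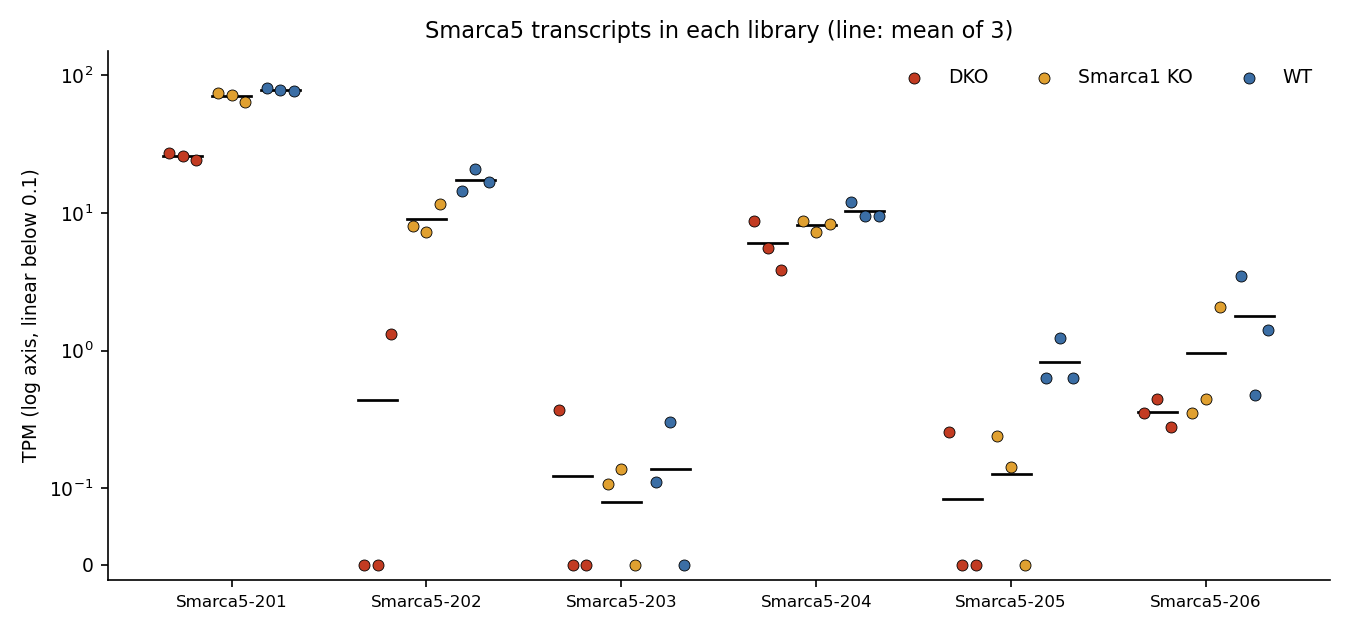
TPM of the 6 Smarca5 transcripts in each library, on a log axis that is linear below 0.1; points are libraries in DKO, Smarca1 KO and WT and black lines are means of 3. Smarca5-201 is lower in DKO than in all other libraries, and Smarca5-202 is at 0 in all DKO libraries except replicate 3, at 1.32 TPM.

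None of the 5 Smarca1 transcripts tested was called in any comparison, as levels or in usage (edgeR; adjusted p between 0.54 and 1). The main transcript Smarca1-202 had 8.24, 8.06 and 8.53 TPM in DKO, 8.92, 7.50 and 9.16 TPM in Smarca1 KO and 9.02, 8.1 and 8.0 TPM in WT. All groups overlapped. Its log2 fold change for Smarca1 KO against WT was 0.06 (95% interval -0.14 to 0.26), so a fall below 90.9% of WT lay outside the interval.

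Smarca1-203, with the longer reading frame, had 6.42, 7.24 and 6.80 TPM in DKO, 6.85, 6.47 and 8.12 TPM in Smarca1 KO and 5.65, 5.09 and 7.22 TPM in WT. It held 34.2% to 37.7% of Smarca1 reads in DKO, 33.1% to 38.4% in Smarca1 KO and 28.2% to 39.2% in WT. These reads were assigned to the whole transcript, of whose 3961 stretches of 31 bases only 29 occur in no other transcript. Reads over either printed end of the reading frame were not counted. Smarca1-201, which encodes the same residues as Smarca1-202, varied widely within groups: 50.7 to 93.6 reads in DKO, 20.2 to 152 in Smarca1 KO and 23.4 to 116 in WT.

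Smarca1-206, with the added exon of 12 codons, was assigned reads in all 9 libraries. Only 2.77% of its 31-base stretches occur in no other transcript, and reads over that exon were not counted. Smarca1-206 had 72.1, 85.3 and 64.4 reads in DKO, 70.6, 58.4 and 70.3 in Smarca1 KO and 75.5, 100 and 68.4 in WT. That was 3.65% to 7.13% of Smarca1 reads in DKO, 4.34% to 5.85% in Smarca1 KO and 5.12% to 9.57% in WT, and the groups overlapped. The log2 fold change of this form was -0.31 for DKO against WT (95% interval -1.04 to 0.43, adjusted p = 0.80).

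Smarca1-205, which stops in intron 8 after 8 exons, had 17.9, 9.70 and 25.4 reads in DKO, 23.04, 4.50 and 4.03 in Smarca1 KO and 0, 0 and 8.40 in WT. The DKO libraries lay above the WT libraries at this low depth. The log2 fold change of 2.38 for DKO against WT had a 95% interval of -0.74 to 5.49 (adjusted p = 0.54). Smarca1-204 and Smarca1-207 were listed at 0 in all 9 libraries.

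**Figure D4:**
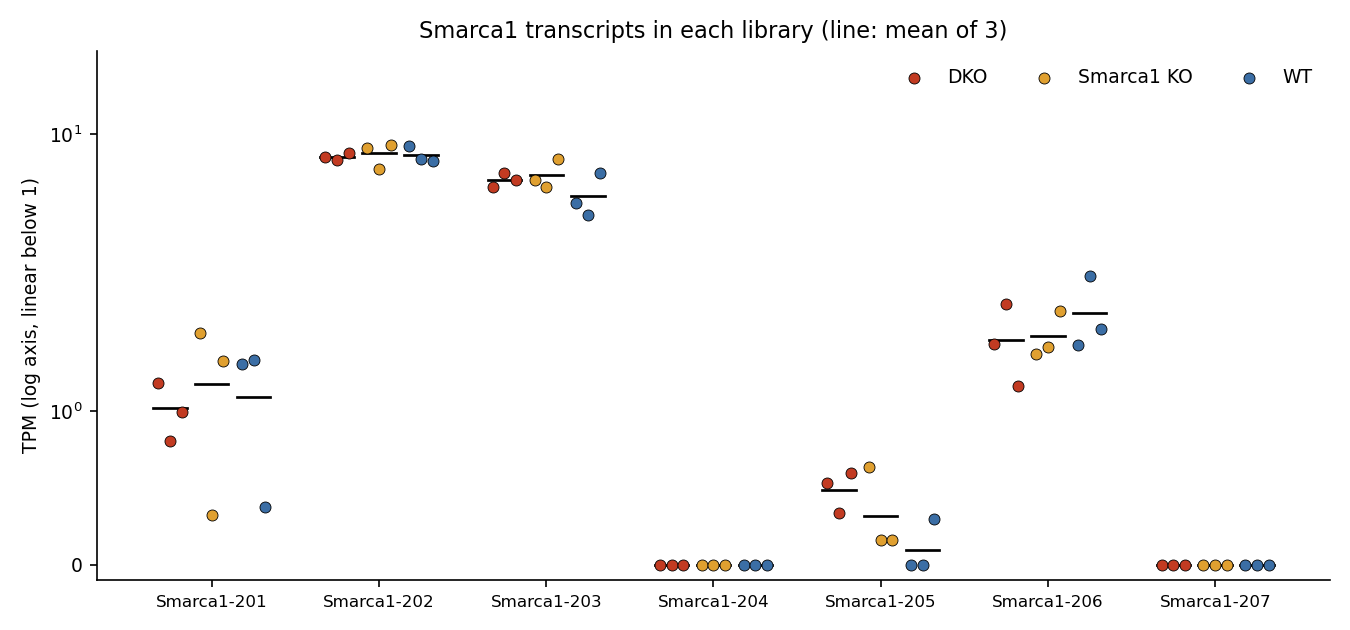
TPM of the 7 Smarca1 transcripts in each library, on a log axis that is linear below 1; points are libraries in DKO, Smarca1 KO and WT and black lines are means of 3. The groups overlap for Smarca1-201, Smarca1-202, Smarca1-203 and Smarca1-206, and Smarca1-204 and Smarca1-207 are at 0.

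**Figure D5:**
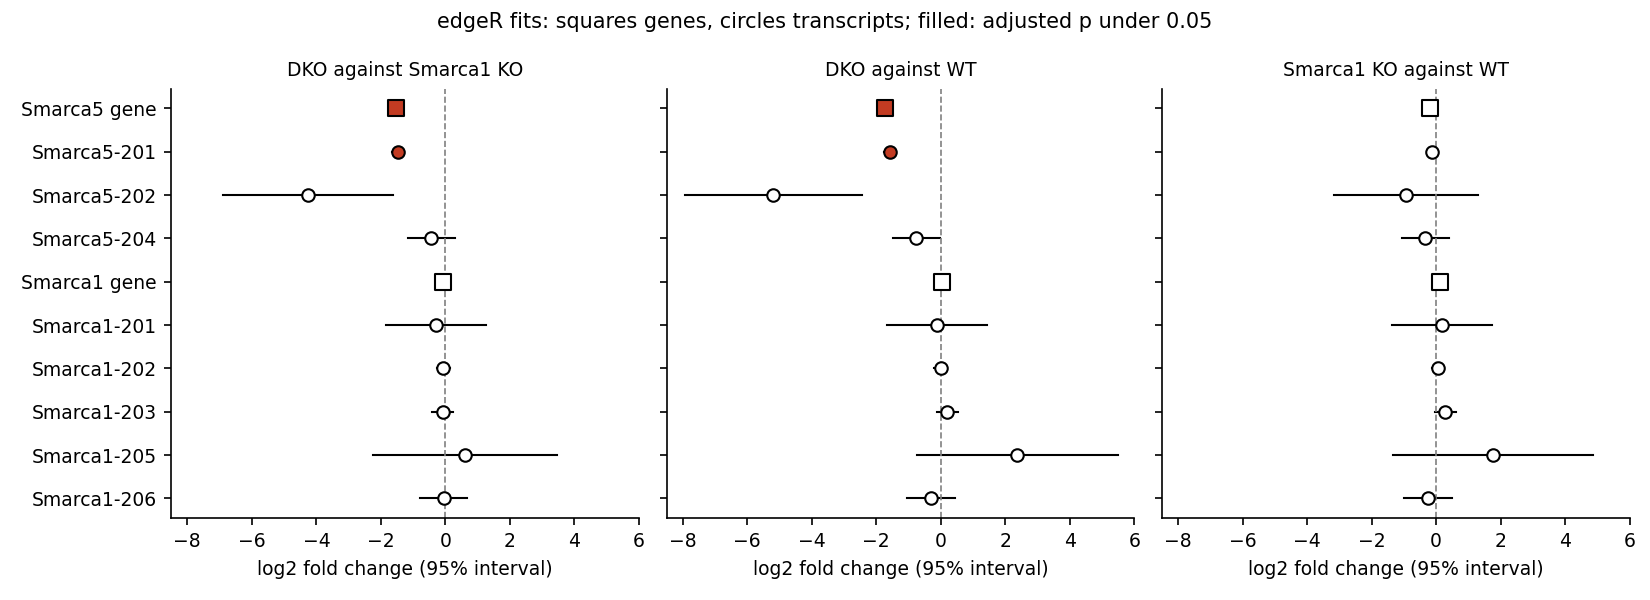
Log2 fold changes with 95% intervals from edgeR for the 2 genes (squares) and the 8 tested transcripts (circles) in the 3 comparisons; filled symbols passed an adjusted p under 0.05. Only the Smarca5 gene and Smarca5-201 are filled, in DKO against Smarca1 KO and against WT; where no bar shows, the interval is narrower than the symbol.

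Part of the Smarca5 transcript sequence occurs elsewhere in the genome. Of its 7761 stretches of 31 bases 32.8% lie in other genes, chiefly in 6 copies on chromosome 4, among them the pseudogene Smarca5-ps and Gm13136, which hold 53.8% and 58.8% of their own stretches in common with it. All 6 copies together were assigned reads equal to 0.249% to 0.381% of the Smarca5 reads in DKO, to 0.342% to 0.468% in Smarca1 KO and to 0.0989% to 0.307% in WT. With the closest copies added to Smarca5 the log2 fold change for DKO against Smarca1 KO was -1.54 and for DKO against WT -1.73.

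The genes nearest to the ATPases were looked at in the same fit. Gab1, an adaptor of growth factor receptors that starts 24.9 kb beyond Smarca5, had log2 fold changes of 0.03 for DKO against Smarca1 KO (adjusted p = 0.84) and -0.13 for DKO against WT (adjusted p = 0.22). Usp38, a deubiquitinase 241.2 kb away, had 0.09 and 0.04 (adjusted p = 0.43 and 0.65). On the other side Hhip, which binds Hedgehog ligands and lies 640.5 kb away, was low and not called. It had 2.62 ± 0.83 CPM in DKO, 2.15 ± 0.63 in Smarca1 KO and 1.68 ± 0.63 in WT. Beside Smarca1, Ocrl, an inositol phosphatase 19.4 kb away, averaged 54.4 ± 2.2 CPM in DKO, 66.1 ± 2.0 in Smarca1 KO and 63.7 ± 2.3 in WT (SD, n = 3). Its log2 fold change was called both for DKO against Smarca1 KO (-0.28, adjusted p = 0.013) and for DKO against WT (-0.23, adjusted p = 0.019). Both calls ended with effective-length offsets (adjusted p = 0.18 and 0.28, in a range over alternatives up to 0.44 and 0.62). The call against Smarca1 KO also ended without DKO replicate 3 (adjusted p = 0.054), and the call against WT without DKO replicate 2 or 3 or any WT library (adjusted p up to 0.073). Apln, the secreted peptide apelin, lies 132.2 kb away and was 11.7 ± 0.90 CPM in DKO, 11.6 ± 1.5 in Smarca1 KO and 15.9 ± 0.40 in WT. The log2 fold change of Apln was -0.45 for DKO against WT (adjusted p = 0.025) and -0.45 for Smarca1 KO against WT (adjusted p = 0.10). The first ended without DKO replicate 2 or 3 or any WT library (adjusted p up to 0.086), and the other was called without Smarca1 KO replicate 1 (adjusted p = 0.050) and by DESeq2 (adjusted p = 0.0078). The predicted genes Gm6480 and Gm14654 lie on the other side of Smarca1, 83 and 1448 kb away. They were at 1.07 to 1.46 CPM on average and not called.

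Among the partner subunits of ISWI complexes, 5 passed the test in DKO against WT and none in the other comparisons. All 13 listed were tested. In DKO against Smarca1 KO none was called, where 4.39% of all genes were. DESeq2 called 2, and 1128 genes in all. An unadjusted p under 0.05 in edgeR was reached by 4, and by 18.4% of all genes. The median log2 fold change was 0.05 against 0.00 over all genes. Rsf1, the RSF subunit, had the smallest p there (-0.15, adjusted p = 0.065). In DKO against WT 4 fell and 1 rose, and the median was -0.09 against 0.01 over all genes. In that comparison 12.0% of all genes were called, of which 1002 fell and 885 rose. Bap18, a protein known to associate with Bptf and listed here as 0610010K14Rik, rose to 155 ± 2.0 TPM in DKO, against 120 ± 6.7 TPM in WT (log2 fold change 0.37, adjusted p = 0.0054). Cecr2, the CERF subunit, fell to 16.8 ± 1.7 TPM in DKO, against 20.7 ± 0.72 TPM in WT (-0.42, adjusted p = 0.013). Rsf1 (-0.17, adjusted p = 0.025) and Baz1b of WICH (-0.22, adjusted p = 0.029) also fell. The call of Bap18 held when any single library was left out (adjusted p at most 0.034). Without DKO replicate 3, WT replicate 1 or WT replicate 2, it was the only partner called, with adjusted p for Cecr2 reaching 0.056, for Rsf1 0.094 and for Baz1b 0.10, and without DKO replicate 2 or WT replicate 3 Cecr2 was called beside it. The call of Rsf1 also ended with effective-length offsets (adjusted p = 0.19). Genes called in all moved too, to 543, 450 and 541 without DKO replicate 3, WT replicate 1 and WT replicate 2, and to 715 and 521 without DKO replicate 2 and WT replicate 3, against 1887 with all libraries. In Smarca1 KO against WT none was called, where 0.336% of all genes were. DESeq2 called 2, and 701 genes in all. An unadjusted p under 0.05 in edgeR was reached by 8, and by 18.9% of all genes. The median was -0.14 against 0.01 over all genes. Baz1b had the smallest p there (-0.20, adjusted p = 0.14).

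Among the other 29 ATPases of the SNF2 family none was called in DKO against Smarca1 KO, where 4.39% of all genes were. DESeq2 called 1. An unadjusted p under 0.05 in edgeR was reached by 6, against 18.4% of all genes. The median log2 fold change was -0.02 against 0.00 over all genes. Chd4, the motor of the NuRD complex, had the smallest p (-0.12, adjusted p = 0.098). In DKO against WT 7 fell and none rose, with a median of -0.15 against 0.01 over all genes. There 12.0% of all genes were called, of which 1002 fell and 885 rose. Chd4 fell to 225 ± 4.9 TPM in DKO, against 280 ± 4.3 TPM in WT (-0.31, adjusted p = 0.0021). Chd1l, which acts at DNA damage, fell to 7.42 ± 0.46 TPM in DKO, against 11.7 ± 1.6 TPM in WT (-0.61, adjusted p = 0.018). Chd2 (-0.20, adjusted p = 0.027) and Smarcad1 (-0.15, adjusted p = 0.031) fell as well. The call of Chd4 held when any single library was left out (adjusted p at most 0.015), while Chd1l reached an adjusted p of 0.073, Chd2 of 0.0995 and Smarcad1 of 0.11 without a DKO or WT library. The number called was 1 without DKO replicate 3, WT replicate 1 or WT replicate 2, 2 without DKO replicate 2 or WT replicate 3, and 17 without Smarca1 KO replicate 3, where 3178 genes were called in all. With effective-length offsets the adjusted p was 0.061 for Chd2 and 0.078 for Smarcad1. In Smarca1 KO against WT none was called, where 0.336% of all genes were. DESeq2 called 5, and 701 genes in all. An unadjusted p under 0.05 in edgeR was reached by 15, and by 18.9% of all genes. The median was -0.10, and Chd4 had the smallest p (-0.19, adjusted p = 0.075). Both comparisons with WT share the WT libraries. Higher in DKO than in WT without passing the test were, among others, Smarca2, an ATPase of the BAF complex (log2 fold change 0.29, 95% interval 0.05 to 0.52, adjusted p = 0.10), and Chd5 (0.41, 0.03 to 0.78, adjusted p = 0.13), both named after their values were seen.

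The genes whose log2 CPM followed Smarca5 most closely over the 9 libraries were Gm10033, Pgghg, Gga2, Aldoc and Gpd2, with Pearson's r between 0.987 and 0.990 among 12996 genes. Aldoc, the glycolytic aldolase C, had 66.7 ± 3.1 CPM in DKO, 120 ± 5.7 in Smarca1 KO and 128 ± 11 in WT. Gpd2, a mitochondrial glycerol phosphate dehydrogenase, had 29.7 ± 0.86 CPM in DKO, 38.8 ± 0.87 in Smarca1 KO and 40.4 ± 0.19 in WT. These libraries share their group, and the likeness is that of genes lower in DKO. For Smarca1 the closest were St8sia4, Cspg4, Fam196a, Arxes2 and Pcdha4, with r between 0.926 and 0.957. St8sia4, which adds polysialic acid to NCAM, had 51.2 ± 0.44 CPM in DKO, 54.6 ± 5.9 in Smarca1 KO and 51.2 ± 1.7 in WT. Here, as for Smarca1 itself (SD 4.5 CPM in Smarca1 KO, against 0.43 in DKO and 0.71 in WT), the widest spread lay within the Smarca1 KO libraries.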

How the data were processed

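The authors deposited 1 table per library from Salmon 1.4.0; mm10 and DESeq2 also appear, with no role given, per the submitters' processing notes. Per the file headers, each deposited table gives an estimated count for every transcript, TPM, the length and the effective length. Salmon splits a read among transcripts that share its sequence, so counts of transcripts with few bases of their own are the least certain. For the index, annotation and library type, the sources used here give no statement.

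Of the transcript identifiers 115977 are in GENCODE M21 (GRCm38) and 569, with 0.104% to 0.116% of the reads, are not. Counts were rounded, and for genes summed over transcripts. Depth was 27466225 to 46007718 counts per library, and intervals cover the spread between libraries. All 9 libraries were fitted together, with group means and TMM, by edgeR 4.0.16 (R 4.3.3) with filterByExpr, glmQLFit and glmQLFTest, on 15773 genes and on 50753 transcripts; p-values were adjusted by Benjamini-Hochberg over all features of a comparison, and an adjusted p under 0.05 was called. The common coefficient of variation was 10.2% for genes and 46.2% for transcripts. Usage was tested with diffSpliceDGE. Fold changes are the group named first over the other, on the log2 scale. The scripts were tested on simulated data, in which transcripts spread less between libraries than they did here. Alternatives were DESeq2 1.42.0, RLE scaling, no filter, length offsets, limma 3.58.1, a replicate block, a Y-linked covariate, only the groups compared, and each library left out.

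The members and lists were chosen with earlier results of these data known. Named were all member transcripts, the 2 nearest tested genes on each side (1 of these genes is not reported here), the 5 genes with the highest Pearson's r among genes whose mean log2 CPM was 1 or more, copies that share 31-base stretches, and from each list at most 4 members that passed the test, in order of p, or the member with the lowest p where none passed. Genes of the SNF2 list and partner list come from textbook knowledge.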

Additional observations from a re-analysis of the deposited data

How the results depend on the processing

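Smarca5 RNA stayed lower in DKO, and called, under all 17 alternatives for each comparison: log2 fold changes ran from -1.61 to -1.37 against Smarca1 KO and from -1.77 to -1.56 against WT. The calls of Smarca5-201 held as well. Smarca1 was called under none, but its log2 change for DKO against WT turned to -0.0475 with the Y-linked covariate. Y-linked reads stood at 238.4 to 247.1 CPM in DKO, 253.2 to 267.5 in Smarca1 KO and 258 to 265.8 in WT. Group explains much of that covariate (R2 0.808), so a fit that holds both separates them poorly. With it 8 genes were called in DKO against Smarca1 KO, in place of 692, and 4 in DKO against WT, in place of 1887; the log2 changes of Smarca5 were -1.37 and -1.56 with it, and the cause of the lost calls was not tested.

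Whether the replicate numbers pair the samples was not settled. Correlations of deviations ran from -0.063 to 0.35 for libraries of the same number and from -0.256 to 0.16 for the others. The highest was that of DKO replicate 1 with Smarca1 KO replicate 1. With a replicate block the log2 change of Smarca5 was -1.54 against Smarca1 KO and -1.73 against WT, while 6, 4 and 1 transcripts were called in the 3 comparisons, against 67, 166 and 15 without it, and 29 genes in Smarca1 KO against WT, against 53.

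The Smarca5-202 usage call in DKO against WT, the only member called, was 0 members with limma, with a minimum count of 50, with only 2 groups or with the block. Leaving out libraries gave 0 to 1 members called in DKO against WT and 0 to 1 in DKO against Smarca1 KO; the cause was not tested.

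Partner genes called in DKO against WT numbered 0 with the Y-linked covariate, 3 with length offsets and 1 to 7 with a library left out, against 5. In DKO against Smarca1 KO they numbered 2 with DESeq2 and 0 to 1 with a library left out, and in Smarca1 KO against WT 2 with DESeq2. SNF2 genes called in DKO against WT numbered 12 with DESeq2, 0 with the covariate, 3 with length offsets, 17 with only 2 groups and 1 to 17 with a library left out, against 7. In DKO against Smarca1 KO they numbered 1 with DESeq2, 1 with the block and 0 to 1 with a library left out, and in Smarca1 KO against WT 5 with DESeq2.

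Signs of small changes turned. With the covariate Gm6480 was -0.141 in DKO against Smarca1 KO and Gab1 was 0.0338 in DKO against WT. Apln in DKO against Smarca1 KO was -0.0015 with DESeq2 and -0.0037 with length offsets. Smarca1-202 in DKO against WT was 0.000503 with only 2 groups. With a library left out, ranges in DKO against Smarca1 KO were -0.0688 to 0.116 (Apln), -0.0352 to 0.0847 (Gab1), -0.192 to 0.0371 (Gm14654), -0.012 to 0.434 (Hhip), -0.749 to 0.166 (Smarca1-201), -0.133 to 0.0020 (Smarca1-203) and -0.329 to 0.162 (Smarca1-206). In DKO against WT they were -0.533 to 0.172 (Smarca1-201), -0.031 to 0.0511 (Smarca1-202) and -0.0015 to 0.066 (Usp38). In Smarca1 KO against WT they were -0.284 to 0.632 (Smarca1-201) and -0.415 to 0.0357 (Smarca1-206).

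Counts of all features called moved past 1.5 times in other settings. With a library left out, 286 to 795 genes were called in DKO against Smarca1 KO, 450 to 3178 in DKO against WT and 14 to 72 in Smarca1 KO against WT. DESeq2 called 1128 genes in DKO against Smarca1 KO and 701 in Smarca1 KO against WT, and 916, 1913 and 694 transcripts in the 3 comparisons. Length offsets called 389 genes in DKO against Smarca1 KO. Only the 2 groups gave 181 genes and 22 transcripts in DKO against Smarca1 KO and 3443 genes in DKO against WT. No filter gave 90 genes in Smarca1 KO against WT and 85 transcripts in DKO against WT.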
